A study of Mus musculus with 36 samples.

Results

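NF-kappaB is a family of transcription factors that act as dimers, and several of its own subunits and inhibitors are encoded by genes that it switches on. The 10 genes described here were taken by symbol from a table of 55421 mouse Ensembl genes. They are the classical inhibitors of the IkB family Nfkbia (IkB alpha), Nfkbib (IkB beta) and Nfkbie (IkB epsilon), the nuclear IkB proteins Nfkbiz, Nfkbid and Bcl3, the precursor subunits Nfkb1 (p105, processed to p50) and Nfkb2 (p100, processed to p52), the subunit Relb, and Tnfaip3 (A20), a ubiquitin-editing enzyme that restrains signalling upstream of the IkB kinase. All 10 passed the filter on low counts, among 19478 genes tested.

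In resting cells the classical IkB proteins hold NF-kappaB dimers in the cytoplasm. Signals from receptors for tumour necrosis factor, interleukin 1 or microbial products activate the IkB kinase, the inhibitors are degraded, and the dimers enter the nucleus. There they induce Nfkbia, Nfkbie and Tnfaip3, which turn the signal down again, and Nfkb1, Nfkb2 and Relb, which change the supply of subunits. In the brain the pathway is best known from microglia and astrocytes during inflammation, and it is also present in neurons.

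The RNA came from slices of the right hippocampus of wild-type C57BL/6 mice (WT) and of T41B mice, which carry human APP with the London and Swedish mutations in a Thy1 cassette, a driver active in neurons. From 13 to 16 months of age the mice received either vehicle (VEH) or BD10-2, which partially activates TrkB and TrkC, receptors for neurotrophins, by oral gavage. Each slice then had theta-burst stimulation, 3 trains of 10 bursts with 4 pulses at 100 Hz per burst, or a sham procedure. Every group of this study, controls included, was gavaged for 3 months, was aged and had its hippocampus cut into slices. Combining genotype, treatment and stimulation gave 8 groups: 4 mice in each VEH group, 3 in each WT BD10-2 group and 5 in each T41B BD10-2 group.

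The 36 libraries came from 18 mice, 14 of them with both a sham and a stimulated slice, and held 11597555 to 28125842 expected counts each. Libraries with the same mouse and stimulation were added, which left 32 samples. Thy1 separated the genotypes, at 254.8 to 399.8 CPM (counts scaled to a common library size) in the WT libraries and 879.6 to 2411.9 CPM in the T41B libraries. The library at 879.6 CPM stands apart from the others of its mouse. It is labelled as a stimulated slice of T41B Mouse1592, while its same-label library held 1908.5 and the sham library of that mouse 2232.7 CPM of Thy1. Whether it is another slice or a mix-up cannot be told from the labels. Scaled by the total count of each library, it also held less of most members, with 136.9 against 297.3 CPM of Tnfaip3 and 7.45 against 18.7 CPM of Bcl3, so the results for stimulated BD10-2-treated T41B mice are also given without it. All 4 pairs of same-label libraries differed by more than counting error, the chi-square statistic over its degrees of freedom being 31.64 for the sham pair of WT Mouse1565, 23.98 for the sham pair of T41B Mouse1557, 13.73 for Mouse1592 and 8.1 for the stimulated pair of WT Mouse1586. On the same scale Nfkb2 was 9.14 against 17.8 CPM in the Mouse1565 pair and 19.8 against 20.6 CPM in the Mouse1557 pair. Each of the 8 batches holds a single treatment, so treatment and batch cannot be told apart. Markers of neurons, astrocytes, oligodendrocytes and microglia were present in every group, with summed neuronal markers at 1854 to 2722 CPM even in the group where they were lowest. In such bulk samples, fewer cells of a type and less RNA per cell cannot be told apart.

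NF-kappaB dimers bind a 10-base DNA element, and the DNA just before the members' start sites is shown because most of these genes are known targets of NF-kappaB. The stretches cover 5 members called after stimulation in all 4 comparisons, and Nfkbid, called in 1 of them. The RefSeq promoter table (GRCm38.p6) matched 7 of the 10 members, with 12 start sites. Of the 250-base windows before these starts, 7 held the NF-kappaB consensus on either strand, against 3.9% of all 32851 windows of that length in the table. The looser pattern GGGNNNNNCC, which overlaps the consensus, was in 45.8% of all windows. The stretches below read 5′ to 3′ on the strand of the gene, leave out bases annotated as UTR, and carry each consensus match in capitals:
Nfkbia (chr12:55492648-55492897, minus strand): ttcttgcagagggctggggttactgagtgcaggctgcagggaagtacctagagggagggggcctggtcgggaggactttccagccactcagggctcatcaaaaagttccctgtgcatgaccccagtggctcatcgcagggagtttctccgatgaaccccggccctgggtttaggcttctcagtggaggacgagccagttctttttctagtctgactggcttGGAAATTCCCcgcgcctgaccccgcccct
Nfkbie (chr17:45555450-45555699, plus strand): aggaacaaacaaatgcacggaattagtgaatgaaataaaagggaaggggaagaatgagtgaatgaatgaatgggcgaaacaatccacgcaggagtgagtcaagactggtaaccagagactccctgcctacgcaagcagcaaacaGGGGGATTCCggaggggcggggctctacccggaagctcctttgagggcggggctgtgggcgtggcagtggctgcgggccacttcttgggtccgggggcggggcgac
Tnfaip3 (chr10:19015411-19015547, minus strand): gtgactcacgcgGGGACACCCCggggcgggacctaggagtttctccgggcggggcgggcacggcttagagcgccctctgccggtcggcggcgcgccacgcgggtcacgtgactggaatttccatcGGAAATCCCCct
Nfkb2 (chr19:46305445-46305694, plus strand): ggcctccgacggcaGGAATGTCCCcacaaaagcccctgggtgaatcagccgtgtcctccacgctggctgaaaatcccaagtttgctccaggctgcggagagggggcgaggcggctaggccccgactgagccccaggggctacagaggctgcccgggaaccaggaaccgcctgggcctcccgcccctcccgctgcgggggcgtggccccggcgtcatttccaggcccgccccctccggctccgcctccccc
Nfkbid (chr7:30422156-30422405, plus strand): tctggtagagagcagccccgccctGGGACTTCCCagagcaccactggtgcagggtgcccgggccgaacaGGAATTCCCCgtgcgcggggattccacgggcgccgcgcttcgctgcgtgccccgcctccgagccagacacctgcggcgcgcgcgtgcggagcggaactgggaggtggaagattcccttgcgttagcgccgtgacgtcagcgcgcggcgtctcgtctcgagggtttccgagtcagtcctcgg
Bcl3 (chr7:19822771-19823005, minus strand): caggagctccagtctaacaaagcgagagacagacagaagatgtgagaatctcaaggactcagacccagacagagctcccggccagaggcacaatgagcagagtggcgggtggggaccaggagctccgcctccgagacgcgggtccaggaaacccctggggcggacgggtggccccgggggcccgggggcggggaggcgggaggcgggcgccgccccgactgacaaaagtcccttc

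The last base of the Nfkbia match lay 20 bases before the start site, and that of Nfkbie 97 bases before it. Tnfaip3 had 2 matches before the first of its start sites, 116 and 3 bases away, and none before the second. Of the 3 Nfkb2 start sites each had at least 1 match, and the stretch shown belongs to the second of them. Nfkbid had 2 matches before its second start site and none before the other 2. No match was found before the start sites of Bcl3 or Nfkbib, which says only that these letters are not in those windows. Nfkbiz, Nfkb1 and Relb are named only. The stretches of Tnfaip3, Nfkb2 and Nfkbid lie inside the annotated span of the gene, which has a start further upstream, and for Tnfaip3 110 bases annotated as UTR of that start were left out. A match is a description of the sequence, and binding was not measured here.

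The genes lie on chromosomes 3 (Nfkb1), 7 (Nfkbib, Nfkbid, Bcl3 and Relb), 10 (Tnfaip3), 12 (Nfkbia), 16 (Nfkbiz), 17 (Nfkbie) and 19 (Nfkb2) of GRCm38.p6. Tnfaip3 spans chr10:19000910-19015657, Nfkbia chr12:55489410-55492647, Nfkb2 chr19:46304320-46312385, Bcl3 chr7:19808462-19822770 and Nfkb1 chr3:135584655-135691547. Counts are of whole genes, with no split by exon.

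Nfkbia was the most abundant member per length in every group. In sham slices of VEH-treated WT mice its mean level was 32.8 CPM per kb of its longest coding transcript, followed by Nfkbiz at 12.7 and Nfkb1 at 9.44 CPM per kb. Bcl3 was the lowest, at 0.678 CPM per kb, below Nfkbid at 1.8. The order of levels changed across groups: in stimulated slices of BD10-2-treated T41B mice Tnfaip3 came second on the per-length scale, at 87.4 CPM per kb after Nfkbia at 193, and Bcl3 at 11.2 had passed Nfkbid at 4.44. For all 10 members the group mean was highest in stimulated BD10-2-treated T41B slices and second highest in stimulated VEH-treated T41B slices, and the samples of these neighbouring groups overlapped for every member. At the other end of the order, the WT sham groups were the lowest pair for all 10 members. The middle of the order split the members: stimulated WT slices ranked above sham T41B slices for Nfkbia, Nfkbie, Bcl3, Nfkb1, Nfkb2, Relb and Tnfaip3, and below them for Nfkbib, Nfkbiz and Nfkbid.

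**Figure D1:**
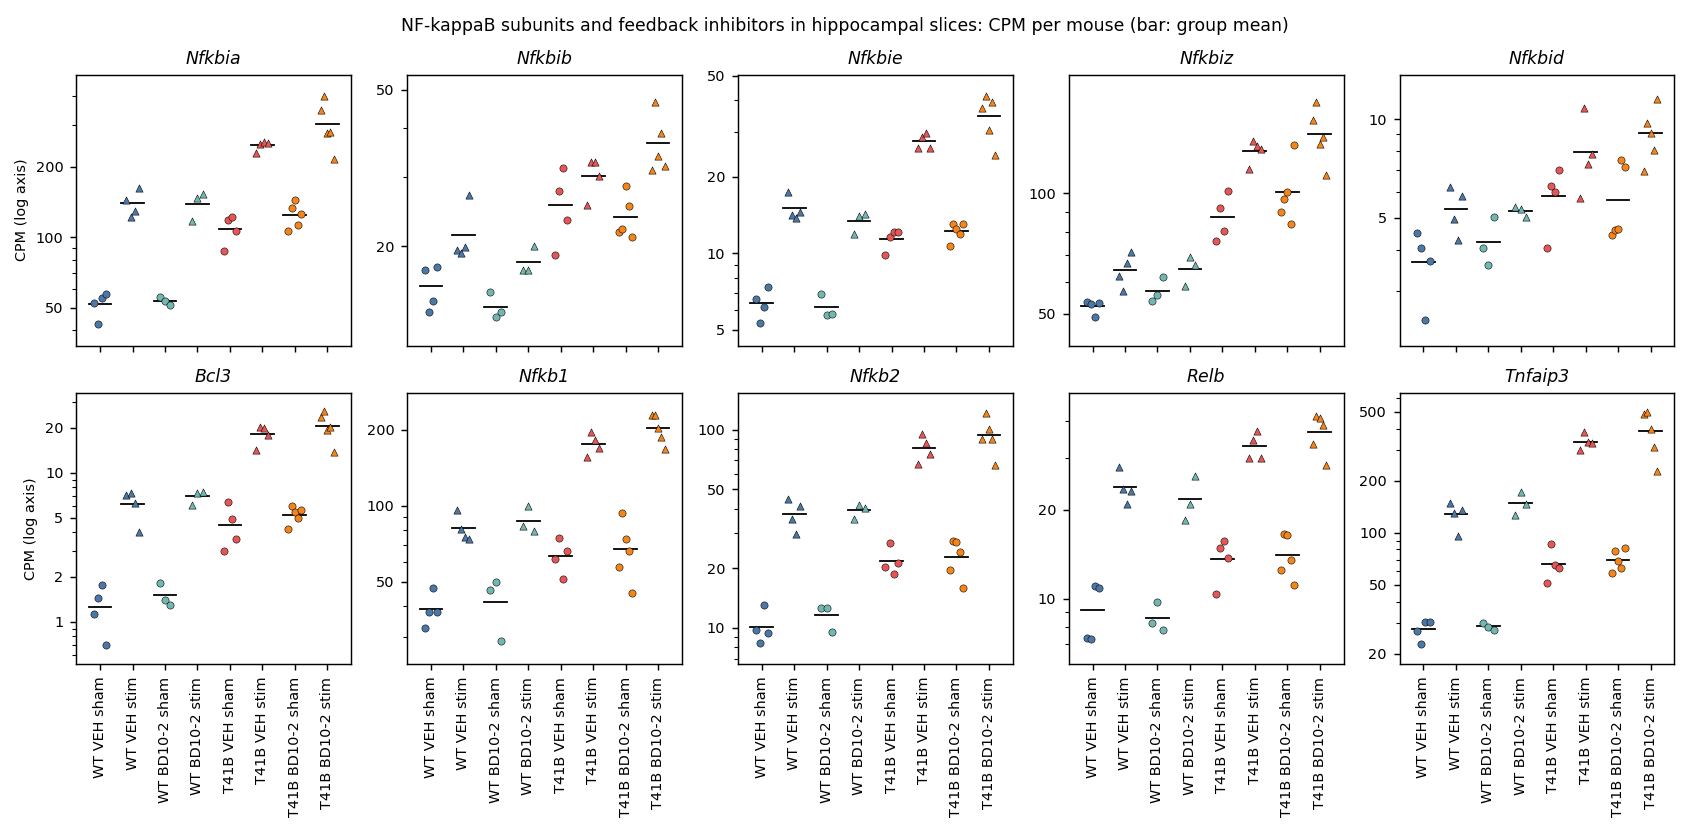
CPM on a log axis for each of the 10 members, one point per mouse (circles sham, triangles stimulated) and a bar at each group mean, over the 8 groups of genotype, treatment and stimulation. Tnfaip3 runs from 22.6 to 30.6 CPM in VEH-treated WT sham slices to 229 to 501 CPM in stimulated slices of BD10-2-treated T41B mice, while Nfkbid, Nfkbib and Nfkbiz cover a narrower range.

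The first comparison asked which members differ between stimulated and sham slices of the same genotype and treatment. Stimulated slices held more Tnfaip3, Bcl3, Nfkb2, Nfkbia, Relb, Nfkbie and Nfkb1 transcript in WT and T41B mice under either treatment, by 2.09- to 5.53-fold. In VEH-treated WT mice 7 of 10 members were called higher at an adjusted p under 0.05, where 8.21% of all genes tested were called higher. In VEH-treated T41B mice 8 were called, against a background of 11.7%. In BD10-2-treated WT mice 7 were called, against 6.29%, and in BD10-2-treated T41B mice all 10, against 13.3%. No member was called lower, and every member had a positive log2 fold change in each of the 4 comparisons. The median log2 fold change of the members was 1.3, 1.27, 1.23 and 1.44 in these 4 comparisons in turn, where the median of all genes tested was -0.01, -0.05, -0.01 and -0.04.

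Tnfaip3 showed the largest increase of the 10 in 3 of the 4 comparisons, and in VEH-treated WT mice Bcl3 came first. In VEH-treated WT mice Tnfaip3 was 22.6, 26.9, 30.4 and 30.6 CPM in the sham slices and 96.3, 129, 136 and 149 CPM in the stimulated slices. In VEH-treated T41B mice it was 51.1, 62.6, 64.7 and 86.2 CPM in sham and 302, 328, 332 and 383 CPM in stimulated slices. Every stimulated sample lay above every sham sample of its genotype, and stimulated WT samples also lay above the sham T41B samples. The increase was 4.61-fold (95% interval 3.52 to 6.05) in WT and 5.08-fold (95% interval 3.89 to 6.64) in T41B mice under VEH. With BD10-2, Tnfaip3 was 27.4, 28.6 and 30.1 CPM in sham and 127, 147 and 171 CPM in stimulated WT slices. In BD10-2-treated T41B mice it was 58.8, 62.6, 68.9, 78.1 and 81.1 CPM in sham and 229, 315, 399, 488 and 501 CPM in stimulated slices. The lowest of the stimulated values is that of Mouse1592. Its log2 fold change reached 2.37 (SE 0.22, edgeR adjusted p = 1.8e-08) in WT and 2.47 (SE 0.17, edgeR adjusted p = 9.12e-12) in T41B mice under BD10-2, and 2.52 in the latter without the library of low Thy1.

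Among the classical inhibitors, Nfkbia and Nfkbie were called higher in all 4 comparisons and Nfkbib in 1. Nfkbia, whose product is made anew after each round of activation, was 42.7, 52.5, 54.8 and 57.2 CPM in sham and 122, 129, 144 and 161 CPM in stimulated slices of VEH-treated WT mice. In VEH-treated T41B mice it was 86.9, 106, 118 and 122 CPM in sham and 228, 249, 253 and 255 CPM in stimulated slices. The groups were separate in both genotypes, and the 3 highest stimulated T41B samples lay close together. Its increase was 2.68-fold (95% interval 2.19 to 3.29) in WT and 2.27-fold (95% interval 1.86 to 2.78) in T41B mice under VEH. Nfkbie, a less abundant inhibitor, ran at 5.33 to 7.39 CPM in sham and 13.8 to 17.5 CPM in stimulated VEH-treated WT slices, with log2 fold changes of 1.23, 1.27, 1.11 and 1.5 in the 4 comparisons in the order given above. Nfkbib, whose gene is regarded as less responsive to NF-kappaB than the other classical inhibitors, was called in this unpaired fit in BD10-2-treated T41B mice alone, at 0.62 (SE 0.13, edgeR adjusted p = 0.000526). In the other 3 combinations its log2 fold change was 0.43, 0.25 and 0.38, with edgeR adjusted p of 0.0521, 0.23 and 0.176. In a fit that paired the slices of each mouse, given below, Nfkbib was also called in VEH-treated mice of both genotypes.

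The nuclear IkB proteins differed among themselves. Bcl3, which binds p50 and p52 dimers in the nucleus, was 0.693, 1.13, 1.44 and 1.76 CPM in sham and 4.00, 6.22, 7.13 and 7.27 CPM in stimulated slices of VEH-treated WT mice. VEH-treated T41B mice had 3.00, 3.62, 4.89 and 6.32 CPM in sham and 14.3, 17.9, 20.1 and 20.3 CPM in stimulated slices. The stimulated and sham samples did not overlap in either genotype, and the WT sham values rest on as few as 12 counts in a sample. The log2 fold changes of Bcl3 were 2.31, 2.01, 2.15 and 1.98 in the 4 comparisons. Nfkbiz, an inducible co-activator for secondary response genes, was called in both T41B comparisons at 0.55 and 0.49, and had values of 0.30 and 0.18 in WT mice that were not called (edgeR adjusted p = 0.0977 and 0.475). Nfkbid was called in BD10-2-treated T41B mice, at 0.70 (SE 0.19, edgeR adjusted p = 0.0067), and lay at 0.53, 0.43 and 0.32 in the other 3 (edgeR adjusted p = 0.116, 0.143 and 0.484). In VEH-treated T41B mice it was 4.06, 6.01, 6.27 and 6.98 CPM in sham and 5.77, 7.32, 7.81 and 10.8 CPM in stimulated slices, so the groups overlapped. Nfkbiz in those mice was 76.2, 80.7, 91.8 and 101 CPM in sham and 115, 129, 131 and 136 CPM in stimulated slices, which were separate. In BD10-2-treated T41B mice, where both genes were called, sham and stimulated samples overlapped. Nfkbiz reached 132.0 CPM in sham and began at 111.3 CPM in stimulated slices there, and Nfkbid reached 7.51 and began at 6.97 CPM.

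All of the member subunit genes rose in all 4 comparisons, Nfkb2 the most. Nfkb2 was 8.36, 9.47, 9.78 and 13.0 CPM in sham and 29.7, 35.3, 41.4 and 44.5 CPM in stimulated slices of VEH-treated WT mice. Its level in VEH-treated T41B mice was 18.7, 20.3, 21.3 and 26.7 CPM in sham and 67.2, 75.7, 86.2 and 94.8 CPM in stimulated slices. Its increase was 3.71-fold (95% interval 2.85 to 4.82) and 3.72-fold (95% interval 2.89 to 4.78), with no overlap between sham and stimulated samples. Nfkb1 was 32.7, 37.7, 37.9 and 47.2 CPM in sham and 73.5, 75.0, 80.5 and 96.1 CPM in stimulated VEH-treated WT slices. VEH-treated T41B mice held 51.1, 61.4, 65.8 and 74.6 CPM in sham and 156, 169, 182 and 196 CPM in stimulated slices. The log2 fold changes of Nfkb1 were 1.06, 1.47, 1.06 and 1.6, the T41B values being the second and the fourth, and the test of that difference is given with the other differences of response. Relb, the partner of p52 in the alternative pathway, was 7.28 to 11 CPM in sham and 20.9 to 27.8 CPM in stimulated VEH-treated WT slices, with log2 fold changes of 1.38, 1.26, 1.34 and 1.38.

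**Figure D2:**
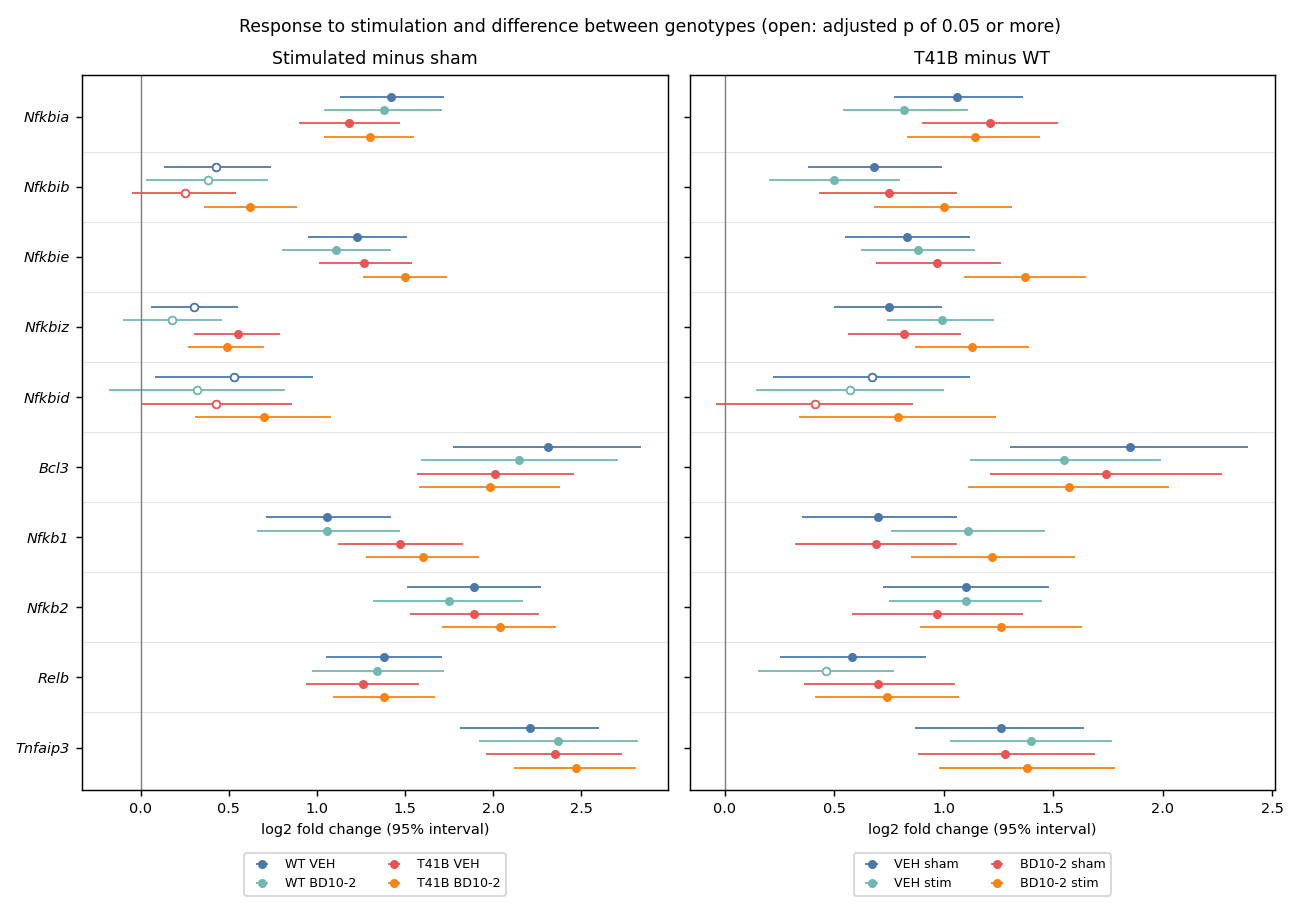
Log2 fold changes of the 10 members with 95% intervals (x axis) for stimulated minus sham slices in 4 combinations of genotype and treatment (left), and for T41B minus WT mice in 4 combinations of treatment and stimulation (right). Open points had an adjusted p of 0.05 or more: on the left these are values of Nfkbib, Nfkbiz and Nfkbid, and on the right 3 values of Nfkbid and 1 of Relb.

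Within single mice the direction was the same. In 14 of 14 mice with both slices the stimulated slice held more of the member, for every member except Nfkbiz, which was higher in 13 of 14. The ratio of stimulated to sham CPM had a median of 5.40 for Tnfaip3 (range 2.82 to 7.28) and of 4.44 for Bcl3 (range 2.46 to 6.33). It was 3.86 for Nfkb2, 2.55 for Nfkb1, 2.54 for Nfkbia, 2.47 for Nfkbie and 2.34 for Relb. The remaining 3 members formed a lower tier, with medians of 1.45 for Nfkbid, 1.35 for Nfkbiz and 1.34 for Nfkbib. The only ratio under 1 was that of Nfkbiz in BD10-2-treated T41B Mouse1592, at 0.84, from 132.0 CPM in the sham slice and 111.3 CPM in the stimulated slice that includes the library of low Thy1. With the mouse as a replicate block, fitted over these 14 mice, 9, 10, 7 and 10 members were called higher in the 4 comparisons, where 11.6%, 14.7%, 4.68% and 13.5% of all genes tested were called higher in the same fit. Among BD10-2-treated WT mice only Mouse1565 and Mouse1571 had both slices, so the effect behind the count of 7 comes from these mice alone. The added calls under the block were Nfkbib (0.43, edgeR adjusted p = 0.00248) and Nfkbid (0.55, edgeR adjusted p = 0.0159) in VEH-treated WT mice, and Nfkbib (0.27, edgeR adjusted p = 0.0236) and Nfkbid (0.44, edgeR adjusted p = 0.0249) in VEH-treated T41B mice.

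**Figure D3:**
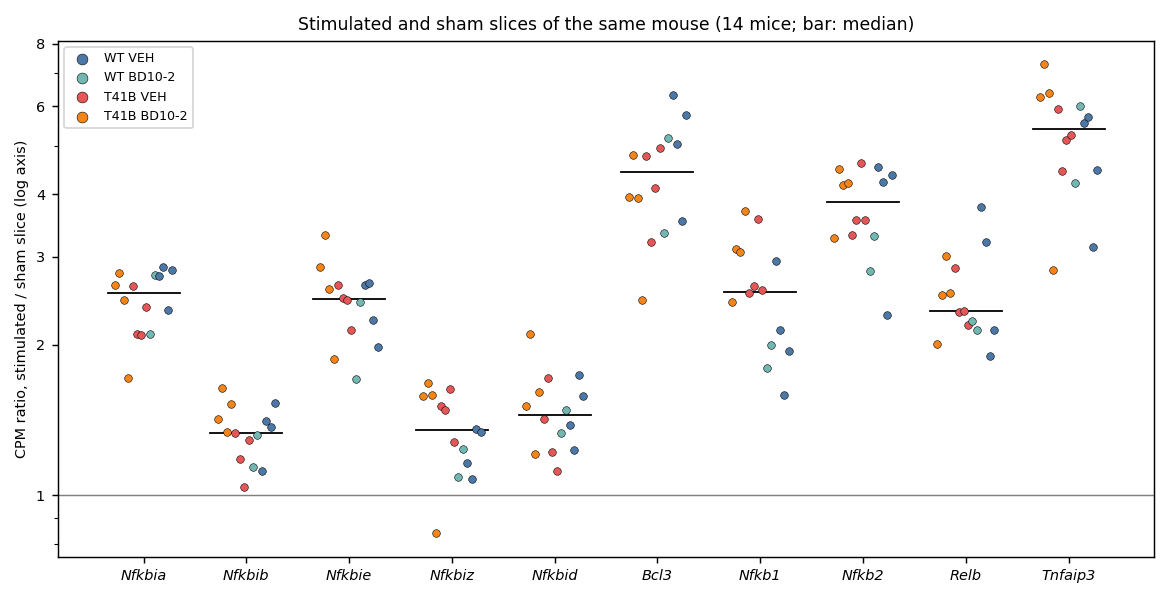
Ratio of CPM in the stimulated slice to CPM in the sham slice of the same mouse (log axis) for each member, one point per mouse coloured by genotype and treatment, with a bar at the median of 14 mice. Tnfaip3, Bcl3 and Nfkb2 sit highest, with medians of 5.40, 4.44 and 3.86, and the single point below 1 is Nfkbiz in Mouse1592.

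The rest of the pathway was read from a list of 58 genes, all of which were tested. In the 4 stimulation comparisons 31, 37, 30 and 38 of them were called higher and 1, 3, 1 and 1 lower, with a median log2 fold change of 0.64, 0.58, 0.54 and 0.72. Of all genes tested, 8.21%, 11.7%, 6.29% and 13.3% were called higher in the same comparisons. Among the other subunits, Rela, which encodes p65, was called higher in all 4 comparisons (1.06, 0.96, 0.96 and 1.16), whereas Rel, which encodes c-Rel, was called in none (-0.25, -0.33, -0.27 and -0.05). Of 18 receptors and adaptors 8, 10, 8 and 11 were called higher and 0, 1, 0 and 0 lower. Tnfrsf1b, a receptor for tumour necrosis factor, had log2 fold changes of 3.59, 3.73, 3.99 and 3.80 and the Toll-like receptor gene Tlr2 of 2.24, 1.20, 2.03 and 1.74. Tnfrsf12a, the receptor for the cytokine TWEAK, had values of 2.04, 1.28, 1.83 and 1.70. The receptor gene Cd40 was called in all 4 as well, from WT sham levels too low for a stable fold. Of 11 kinase genes 3, 5, 3 and 5 were called higher. They included Map3k8, which binds p105 (1.31, 1.43, 1.05 and 1.47), Map3k14, the kinase of the alternative pathway (0.80, 0.77, 0.89 and 0.76), and the adaptor gene Tab2 (0.34, 0.40, 0.34 and 0.39). Ikbkg, the regulatory subunit of the IkB kinase, was the kinase gene called lower in each comparison, at -0.30, -0.46, -0.34 and -0.27.

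Of 15 other negative regulators 8, 9, 7 and 9 were called higher and 0, 1, 0 and 0 lower. Birc3, a ubiquitin ligase, had log2 fold changes of 2.37, 2.56, 2.06 and 2.48, Traf1 of 2.64, 2.60, 3.30 and 3.03, and Tnip1, a partner of A20, of 0.83, 1.15, 1 and 1.33. Tnip3 was called in all 4 as well, likewise from WT sham levels near 0. Of 12 known target genes 11, 12, 11 and 12 were called higher, with median log2 fold changes of 3.52, 3.58, 3.32 and 3.68, above the medians of the 10 members. They included the chemokine gene Cxcl2 (5.31, 4.75, 5.40 and 5.07), Tnfaip2 (4.50, 4.73, 4.78 and 4.56) and Tnf (4.72, 3.45, 4.65 and 3.77). Il1b, which encodes interleukin 1 beta, was called in all 4 too, from WT sham levels near 0.

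Cell type markers moved with stimulation as well. Of 10 microglial markers 7, 8, 7 and 7 were called lower after stimulation and none higher, and their summed level was 250 to 321 CPM in sham and 114 to 172 CPM in stimulated slices of VEH-treated WT mice. Their sum in VEH-treated T41B mice was 503 to 872 CPM in sham and 262 to 366 CPM in stimulated slices. The members that were called rose while the microglial list fell. Whether that fall came from fewer microglia or from less marker RNA per cell cannot be told apart here. Of 6 astrocyte markers 3, 3, 0 and 3 were called higher, with a sum of 1528 to 1856 CPM in sham and 1973 to 2689 CPM in stimulated VEH-treated WT slices. Neuronal markers were called lower for 1, 0, 2 and 2 of 6, with none higher. Endothelial markers were called higher for 1, 2, 1 and 2 of 5 and lower for 1, 0, 1 and 1. Of the T cell markers 2 of 5 were tested, and both were called higher in BD10-2-treated T41B mice, where 1 of 5 tested border macrophage markers was higher as well. Oligodendrocyte markers had 1 of 5 called lower in VEH-treated T41B mice. Choroid plexus markers, 9 of 9, were called higher in VEH-treated WT mice, where the summed level ran from 14.3 to 1220.1 CPM in the stimulated slices against 15.7 to 20.6 CPM in the sham slices, and 1 of 9 was called in each of the other comparisons. The members called in VEH-treated WT mice were called in those other comparisons too, and the part of choroid plexus tissue in their increase was not tested. The 6 neutrophil markers were too low to be tested, with summed levels of at most 0.397 CPM in any sample, and Ly6g, Retnlg and Camp were each at 0 in every sample of 7 of the 8 groups. Of all genes tested, 4.1%, 9.83%, 2.58% and 9.52% were called lower in the 4 comparisons, so a single marker called lower in a list is near that background. The shares called higher were 8.21%, 11.7%, 6.29% and 13.3%, so a single marker called higher is near the background as well. The part of cell type shares in the members' increase was not tested.

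The mitochondrial share of the counts was higher in the stimulated than in the sham slice in 13 of 14 mice. Its median over the mice of a group was 2.91% in sham and 3.68% in stimulated slices of VEH-treated WT mice, and 3.28% and 3.37% in VEH-treated T41B mice. With BD10-2 the medians were 3.55% and 4.24% in WT mice and 2.71% and 2.66% in T41B mice, where the groups do not hold all the same mice. The exception among the pairs was Mouse1579, at 2.73% in sham and 2.52% in the stimulated slice. The part of RNA quality in the members' increase was not tested.

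The second comparison asked how the members differ between T41B and WT mice. Nfkbia, Nfkbie, Nfkbiz, Bcl3, Nfkb2, Tnfaip3, Nfkb1 and Nfkbib were higher in T41B mice under each combination of treatment and stimulation. In VEH-treated sham slices 9 of 10 members were called higher, where 5% of all genes tested were. In VEH-treated stimulated slices 8 were called, against a background of 4.74%. With BD10-2, 9 were called in sham slices, against 4.31%, and all 10 in stimulated slices, against 8.19%. None was called lower. The members' median log2 fold change was 0.79, 0.94, 0.90 and 1.18 in these 4 comparisons in turn, where that of all genes was 0.00, -0.03, 0.01 and -0.02.

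Bcl3 differed the most between the genotypes, with log2 fold changes of 1.85, 1.55, 1.74 and 1.57. With VEH the lowest T41B sham sample, 3.00 CPM, exceeded the highest WT sham sample, 1.76 CPM. With BD10-2, Bcl3 was 1.3, 1.41 and 1.83 CPM in WT and 4.20, 4.95, 5.43, 5.61 and 6.01 CPM in T41B sham slices. In stimulated BD10-2-treated slices it was 6.12, 7.32 and 7.39 CPM in WT and 13.8, 19.5, 20.2, 23.8 and 26.1 CPM in T41B mice. The genotypes did not overlap in any of the 4 settings. The difference was 3.59-fold (95% interval 2.46 to 5.25) in VEH-treated sham slices.

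Tnfaip3 was the next in size in all 4 settings, at 1.26, 1.40, 1.28 and 1.38 on the log2 scale, and its genotype groups were separate in each. Nfkb2 followed a similar course at 1.1, 1.1, 0.97 and 1.26. With BD10-2, Nfkb2 was 9.58, 12.6 and 12.6 CPM in WT and 15.9, 19.7, 24.3, 27.2 and 27.5 CPM in T41B sham slices. In stimulated slices under BD10-2 it was 35.4, 40.4 and 41.7 CPM in WT and 66.8, 89.5, 89.8, 101 and 122 CPM in T41B mice. Again all T41B samples lay above all WT samples. Nfkbia was 51.5, 53.1 and 55.6 CPM in WT and 106, 113, 125, 133 and 144 CPM in T41B sham slices under BD10-2. In stimulated slices under BD10-2 it was 117, 147 and 153 CPM in WT and 216, 278, 280.0, 349 and 401 CPM in T41B mice. The spread was widest in the last group, which runs from Mouse1592 at the bottom to Mouse1564 at the top. The log2 fold changes of Nfkbia were 1.06, 0.82, 1.21 and 1.14.

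Nfkbiz, which responded little to stimulation, differed between the genotypes by 0.75, 0.99, 0.82 and 1.13 on the log2 scale, a larger value than its response to stimulation in each combination. In VEH-treated sham slices it was 49.1, 52.8, 53.3 and 53.5 CPM in WT and 76.2, 80.7, 91.8 and 101 CPM in T41B mice, without overlap. Nfkbib showed the same order of effects in this fit, with genotype values of 0.68, 0.50, 0.75 and 1. With batch as a term its genotype values under VEH were 0.40 in sham and 0.24 in stimulated slices. Its stimulation value in VEH-treated WT mice was 0.43 with that term, so the order did not hold there. Whether a genotype value differs from a stimulation value was not tested. Relb, in contrast, had genotype values of 0.58, 0.46, 0.70 and 0.74, and it was not called in VEH-treated stimulated slices (edgeR adjusted p = 0.0752). Nfkbid was called in BD10-2-treated stimulated slices only, at 0.79 (SE 0.22, edgeR adjusted p = 0.0163), and lay at 0.67, 0.57 and 0.41 in the other settings. Without the library of low Thy1 the 10 calls of the stimulated BD10-2-treated comparison stood.

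Batches that hold both genotypes gave 7 within-batch values per member, each from 1 or 2 mice per genotype. Batches A, C and I each gave a sham and a stimulated value, largely from the same mice, and batch D a sham value only. The 7 values are therefore not independent. The T41B to WT ratio of CPM was above 1 in 7 of 7 for every member except Relb, which was above 1 in 6 of 7 with a lowest ratio of 0.95. The median within-batch ratio was 3.06 for Bcl3, 2.39 for Tnfaip3, 1.92 for Nfkb2 and 1.86 for Nfkbia. At the lower end it was 1.42 for Relb and 1.32 for Nfkbib. With batch as a term in the fit, Nfkbib lost its call in VEH-treated sham slices (log2 fold change 0.40, edgeR adjusted p = 0.209) and stimulated slices (0.24, edgeR adjusted p = 0.319), and Relb in VEH-treated sham slices (0.36, edgeR adjusted p = 0.438). Leaving out single mice ended the call of Nfkb1 in sham slices (at its lowest 0.49 without Mouse1590, edgeR adjusted p = 0.197), of Relb in sham slices (0.49 without Mouse1509, edgeR adjusted p = 0.131), of Nfkbib in VEH-treated stimulated slices (0.46 without Mouse1551, edgeR adjusted p = 0.126) and of Nfkbid in BD10-2-treated stimulated slices (0.82 without Mouse1565, edgeR adjusted p = 0.0713).

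Exons of Nfkbib share 42 bases with Sirt2 and 314 with Ccer2 on the opposite strand, those of Nfkb2 share 531 bases with AC114539.1 and 299 with Psd, and those of Bcl3 share 161 bases with Gm16175. The strand setting of the counting is not given in the sources used here, so reads of these opposite-strand genes may be counted under the members.

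The wider pathway list moved with genotype too: 21, 28, 18 and 32 of 58 genes were called higher and 0, 1, 0 and 0 lower, with medians of 0.46, 0.47, 0.45 and 0.73. Rela (0.55, 0.46, 0.62 and 0.82) and Rel (0.88, 0.80, 0.72 and 0.95) were both called higher in T41B mice in all 4 settings. Of the kinases 1, 2, 1 and 2 of 11 were called higher, among them Map3k8 at 1.01 in VEH-treated sham slices. Of all genes 5%, 4.74%, 4.31% and 8.19% were called higher in these settings, so a single kinase called is near that share. Of the known targets 6, 9, 7 and 9 of 12 were called higher. Microglial markers were called higher for 9, 6, 8 and 10 of 10 genes, and astrocyte markers for 2, 2, 2 and 5 of 6. Neuronal markers were called lower for 1, 2, 2 and 0 of 6, where 1.24%, 1.05%, 1.14% and 2.36% of all genes were called lower. Choroid plexus markers were called higher for 1 of 9 in VEH-treated sham slices (median log2 fold change 1.94) and lower for 2 of 9 in VEH-treated stimulated slices (median -2.52). In stimulated slices under BD10-2, 2 of 5 tested border macrophage markers and 1 of 2 tested T cell markers were higher. The summed microglial level was 128 to 160.3 CPM in WT and 302 to 535 CPM in T41B stimulated slices under BD10-2, and 250 to 321 against 503 to 872 CPM in sham slices under VEH. The summed astrocyte level was 1528 to 1856 CPM in WT and 2659 to 3726 CPM in T41B sham slices under VEH. Gfap carried most of that difference, with means of 358 and 1497 CPM, and the median log2 fold change of the 6 astrocyte markers was 0.31. Most microglial markers and the members were thus higher in the same samples, and the part of a larger share of microglia or astrocytes was not tested.

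The third comparison set BD10-2 against VEH within genotype and stimulation. No member was called in any of the 4 comparisons, and neither was any of the 19478 genes (0%). At an unadjusted edgeR p under 0.05, 374 genes passed in WT sham, 1093 in WT stimulated, 431 in T41B sham and 759 in T41B stimulated slices. By chance alone a share of 0.05 of the 19478 genes would pass, more than passed in WT sham, T41B sham or T41B stimulated slices. DESeq2 called 0, 25, 0 and 0 genes, none of them a member. The members' log2 fold changes ran from -0.17 to 0.32 in WT sham slices, -0.22 to 0.22 in WT stimulated slices and -0.10 to 0.22 in T41B sham slices. In T41B stimulated slices all 10 were positive, from 0.14 to 0.33, with a median of 0.20 against 0.01 for all genes. The members were measured in the same mice and are correlated across samples, so the shared sign is not 10 separate observations. In that comparison the 10 microglial markers had a median log2 fold change of 0.47, with none called, and their sum was 262 to 366 CPM with VEH and 302 to 535 CPM with BD10-2. The median was 0.73 for 2 T cell markers, 0.37 for 5 oligodendrocyte markers, 0.08 for 6 astrocyte markers and -1.13 for 9 choroid plexus markers, and no marker was called in any of the BD10-2 comparisons. The part of these cell types in the members' values was not tested.

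Nfkbia and Nfkbie had the smallest p-values there. In stimulated T41B slices Nfkbie was 26, 26, 28.6 and 29.7 CPM with VEH and 24.3, 30.7, 37.3, 39.4 and 41.5 CPM with BD10-2. The groups overlapped, because Mouse1592 lay below all VEH samples while 4 of the 5 BD10-2 samples lay above them. The log2 fold change was 0.33 (95% interval 0.08 to 0.57), with an unadjusted edgeR p of 0.0102 and an adjusted p of 1. That of Nfkbia was 0.31 (95% interval 0.04 to 0.58), with an unadjusted edgeR p of 0.0272. Without the library of low Thy1 the edgeR values became 0.39 for Nfkbie (unadjusted p = 0.000624, adjusted p = 0.439) and 0.35 for Nfkbia (unadjusted p = 0.00719, adjusted p = 0.735), and no gene was called. The 95% interval of Tnfaip3, the most responsive member, was -0.15 to 0.55 in stimulated T41B and -0.18 to 0.61 in stimulated WT slices. Over all 4 comparisons the widest interval was that of Bcl3 in WT sham slices, -0.30 to 0.94. Since each batch holds 1 treatment, a treatment value and a batch value cannot be told apart.

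The last set of comparisons tested whether the response to stimulation itself differed, as the difference of a pair of log2 fold changes. No member and no gene (0% of those tested) was called for a genotype difference under VEH or BD10-2, or for a BD10-2 difference in WT or T41B mice. Unadjusted edgeR p-values under 0.05 were found for 1683, 846, 337 and 526 genes in these 4 tests. A share of 0.05 of all genes would pass by chance alone, more than passed in each test but the genotype difference under VEH. DESeq2 called 4, 20, 0 and 1 genes, none a member. With the replicate block 3, 0, 0 and 0 genes were called, again none a member. In that fit the response of BD10-2-treated WT mice rests on the pairs of Mouse1565 and Mouse1571 alone.

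Of the 10 members Nfkb1 had the largest difference between genotypes. Under BD10-2 it was 29, 46.1 and 49.7 CPM in sham and 79.0, 83.1 and 99.5 CPM in stimulated WT slices, and 45.1, 57.0, 66.2, 73.8 and 93.8 CPM in sham and 168, 187, 203, 229 and 230.0 CPM in stimulated T41B slices. Sham samples of the genotypes overlapped, and stimulated samples did not. The response in T41B minus that in WT mice was 0.41 (95% interval -0.09 to 0.91) under VEH and 0.53 (95% interval 0.02 to 1.05) under BD10-2, with unadjusted edgeR p-values of 0.104 and 0.0413 and adjusted p-values of 0.619 and 1. For Nfkbie the difference under BD10-2 was 0.39 (95% interval 0.00 to 0.78), with an unadjusted edgeR p of 0.0481. Without the library of low Thy1 that of Nfkb1 was 0.61 and that of Nfkbie 0.46 (adjusted p = 0.527), where 2 genes were called over the whole table. For Tnfaip3 the genotype difference was 0.14 (95% interval -0.39 to 0.67) under VEH, and for Nfkbia it was -0.24 (95% interval -0.64 to 0.17). Tnfaip3 thus stood higher in T41B mice both before and after stimulation, with a response whose difference between genotypes was not resolved. The BD10-2 differences in response were 0.12 (95% interval -0.37 to 0.62) for Tnfaip3 and 0.11 (95% interval -0.27 to 0.49) for Nfkbia in T41B mice. The largest was that of Nfkbib in T41B mice, 0.37 (95% interval -0.02 to 0.77) with an unadjusted edgeR p of 0.0616. Without the library of low Thy1 it was 0.40, with an unadjusted edgeR p of 0.0441 and an adjusted p of 1.

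**Figure D4:**
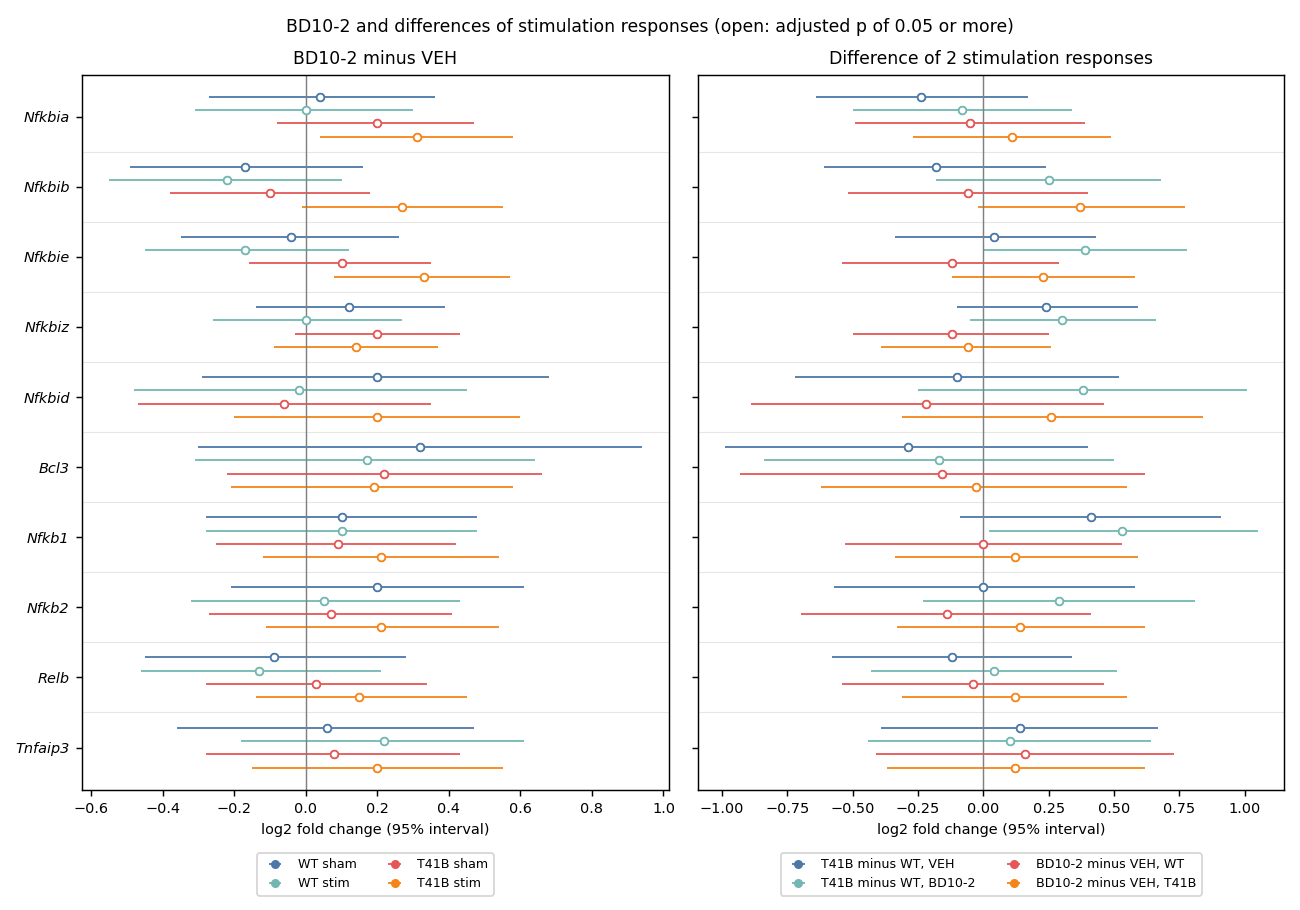
Log2 fold changes with 95% intervals (x axis) of the 10 members for BD10-2 minus VEH (left) and for the difference of 2 stimulation responses (right). All points are open, since none had an adjusted p under 0.05. In stimulated T41B slices all 10 treatment values lie above 0, from 0.14 to 0.33, with intervals wholly above 0 for Nfkbia and Nfkbie only.

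Across the 32 samples all pairs of members were positively correlated. The highest Pearson correlation of log2(CPM + 1) between a pair of members was 0.99, for Nfkb2 and Tnfaip3, and the lowest was 0.69, for Nfkbiz and Relb. These values are descriptive, since the 32 samples share mice, groups and batches. The deviations of the samples from their group means, which do not hold the group differences, correlated at 0.63 for Nfkb2 and Tnfaip3 and at 0.11 for Nfkbiz and Relb. Over the 45 pairs they ran from -0.29, for Nfkbid and Nfkb1, to 0.82, for Nfkbia and Tnfaip3. Nfkbid held 5 of the 6 pairs below 0, and the remaining pair was Nfkbiz and Nfkb1 at -0.05. The stimulated sample of Mouse1592, which includes the library of low Thy1, was the highest of its group for Nfkbid, at 11.5 CPM. It was the lowest of that group for Tnfaip3, at 228.7 CPM. The correlations were not computed without that library, and Nfkbid had as few as 39 counts in a sample. Whether Nfkbid departs from the other members within groups is therefore not settled by these values.

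The genes most like each member over these 32 samples, among 16192 genes compared, were read in the same way. Cd14, a co-receptor of Toll-like receptor 4, was the closest to Tnfaip3 (r = 0.991, deviations 0.84), before Slfn2 (0.987) and Nfkb2 (0.986). Nfkb2 was also closest to Cd14 (0.986, deviations 0.70), then to Tnfaip3 (0.986) and the adhesion gene Icam1 (0.985). The closest to Nfkb1 were Bach1, a transcriptional repressor (0.983), and Nfkb2 (0.979), followed by Rab11fip1. Relb was most like Irf1 (0.980), Rela (0.979) and Cxcl10 (0.978). Nfkbia was most like Cxcl16 (0.984), Cd63 (0.983) and Nfkbie (0.982). Nfkbie was most like Hk2, a hexokinase gene (0.984), Nfkbia (0.982) and Hcar2 (0.981). Bcl3 stood with Ch25h, a cholesterol hydroxylase gene (0.977), and Cxcl16 (0.976), followed by Hcar2. Nfkbiz stood with Hcls1 (0.958), Serpina3n (0.953, deviations 0.58) and Slc11a1 (0.953, deviations 0.65). Nfkbib was closest to Psme1 (0.949), Cndp2 (0.949) and Arf6 (0.944). Nfkbid had the weakest matches, Pmepa1 (0.887), Sun2 (0.859) and Alas1 (0.858). Of the 10 members, 5 had another member among their 3 closest genes: Nfkbia, Nfkbie, Nfkb1, Nfkb2 and Tnfaip3.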

How the data were processed

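The authors deposited RSEM expected counts per gene, unscaled estimates of reads that need not be whole. The submitters' processing notes name cutadapt 1.8.1, STAR 2.7.6a, RSEM 1.3.1, featureCounts 1.6 and the build GRCm38.p6; the annotation release and strand setting are not given in the sources used here. Per the labels' protocols, 200 ng of total RNA was depleted of ribosomal RNA and made into stranded libraries.

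Counts of libraries with equal labels were added and rounded. Genes were kept by filterByExpr (minimum count 10), scaled by TMM and tested with the quasi-likelihood F test of edgeR 4.0.16 in a single fit over 8 groups with no covariate, and called at a Benjamini-Hochberg adjusted p under 0.05 over 19478 genes. CPM of samples uses TMM library sizes, and CPM of single libraries uses their total counts. The fit was also run on simulated counts. These were drawn independently for each sample, without pairs of slices or batches, and do not cover those features of the design. Slices of 1 mouse deviated together (mean r 0.29 over 14 pairs, against -0.08 over 52 pairs of different mice), and the mouse numbers in the labels give the pairing. Depths of 11597555 to 28125842 counts leave counting error small except for Bcl3 and Nfkbid. Symbols matched 55154 of 55421 identifiers. Sequences are from RefSeq, exons and lengths from GENCODE M21.

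The members and lists were chosen with earlier results of these data known. All 10 members are named; of the pathway lists, up to 4 genes each by the number of stimulation comparisons called and then by size, and of like genes the 3 closest. Alternatives were another scaling (RLE), no filter, only the groups compared, a mouse block, a batch term, the deeper of equal-label libraries, leaving out the library of low Thy1 or single mice, and DESeq2 1.42.0.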

Additional observations from a re-analysis of the deposited data

Results flagged for a closer look

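In stimulated slices of VEH-treated WT mice, Nfkbib was 27 CPM in Mouse1524, far above the other 3 mice, the next of which was at 19.9 CPM. In sham slices of VEH-treated WT mice, Nfkbiz was 49.1 CPM in Mouse1522, below the other 3, the next of which was at 52.8 CPM. In each case the gap took most of the group's range (0.916 and 0.838 of it). These were 2 of 60 groups of member values examined for a sample far from the others, where chance alone flags about 1 in 20.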

How the results depend on the processing

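Of 68 values called for a member in a comparison, 61 kept their call and direction in every alternative run (944 in all), 28 alternatives ended the call of the other 7, and none turned the direction. With batch as a term, or with only the groups compared, calls ended for Nfkbib in VEH-treated stimulated slices, T41B minus WT (0.24 and 0.51, edgeR adjusted p = 0.319 and 0.0608), and for Relb in VEH-treated sham slices (0.36 and 0.58, edgeR adjusted p = 0.438 and 0.136). With batch as a term the call also ended for Nfkbib in VEH-treated sham slices (0.40), and with only the groups compared for Nfkb1 in BD10-2-treated sham slices (0.68, edgeR adjusted p = 0.0843). Leaving out single mice ended the call of Relb in VEH-treated sham slices (5 mice, values from 0.49 to 0.58), of Nfkbib in VEH-treated stimulated slices (6 mice, 0.45 to 0.50), and of Nfkb1 in VEH-treated sham slices (Mouse1509 0.63, Mouse1551 0.61). It also ended those of Nfkb1 in BD10-2-treated sham slices (Mouse1563 0.54, Mouse1564 0.65, Mouse1565 0.77, Mouse1590 0.49), of Relb there (Mouse1565 0.67, Mouse1590 0.64) and of Nfkbid in BD10-2-treated stimulated slices (Mouse1565 0.82, Mouse1571 0.81, Mouse1586 0.76). Leaving out a mouse or other groups leaves fewer samples; otherwise the cause was not tested.

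Counts of called members stayed within 1.5 times of those reported in every alternative. Leaving out single mice gave 7 to 7, 8 to 8, 7 to 7 and 10 to 10 members for stimulation, and 7 to 10, 7 to 9, 7 to 9 and 9 to 10 for genotype, in the order of the report. Calls were also gained. The batch term added Nfkbib and Nfkbid in VEH-treated WT mice (edgeR adjusted p = 0.0126 and 0.0166) and Nfkbid in VEH-treated T41B mice (edgeR adjusted p = 0.0284) for stimulation, and only the groups compared added Relb for T41B minus WT in VEH-treated stimulated slices (0.47, edgeR adjusted p = 0.0414). No filter, the deeper library and leaving out the library of low Thy1 each added Nfkbib in VEH-treated WT mice (edgeR adjusted p = 0.0419, 0.046 and 0.046). Nfkbid became called in VEH-treated sham (0.80, edgeR adjusted p = 0.0166) and stimulated slices (0.71, edgeR adjusted p = 0.0421), T41B minus WT, without Mouse1510. The paired fit with the replicate block, given in the report, raised the stimulation counts to 9 and 10 under VEH and changed no other count of called members for stimulation or for differences of response, the comparisons it was run for. Under DESeq2, Nfkbib in VEH-treated WT mice (stimulation, 0.43, adjusted p = 0.0378) and Nfkbid (0.67, adjusted p = 0.0389) and Relb (0.48, adjusted p = 0.0367) between genotypes were called as well. No member was called for BD10-2 or for a difference of responses under any alternative. Groups of 3 to 5 mice and the low counts of Bcl3 and Nfkbid limit what could be detected.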
